A study of Mus musculus with 18 samples.

Results

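Expanded and normal-length TATA-binding protein (TBP) were compared at 36 h after transfection, on 6 of the 18 arrays of the study: the 3 arrays of cells given 59Q-TBP and the 3 of cells given 16Q-TBP at that time, chosen by construct and time alone. The host was Neuro2A, a mouse neuroblastoma line from strain A. Every group, the 16Q control included, expressed a transiently transfected fusion of TBP with green fluorescent protein (GFP) introduced by Amaxa nucleofection, and the constructs differed in a tract of 16 or 59 glutamines. No untransfected or empty-vector cells were analysed here, so each difference is between the constructs and not from unmanipulated cells. The study also sampled 24 h and 60 h, and total RNA from each sample was hybridised in 1 colour (Cy3) to its own Agilent mouse miRNA array. Replicates are biological by their labels, with no word on whether cultures were separate. The p-values hence measure only the spread between these samples, which may be technical.

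TBP is a general transcription factor needed by all nuclear RNA polymerases, and a lengthened polyglutamine tract in it is the cause of spinocerebellar ataxia type 17. miRNAs are short RNAs, cut from hairpin transcripts, that pair with messenger RNAs mainly through the seed near their 5′ end and lower the output of those messages. miRNAs with the same seed form a family with overlapping targets, and miRNAs cut from the same transcript form a genomic cluster that is often expressed together.

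The mature sequences of the miRNAs on which the comparison turned are shown so that shared seeds can be read off. They are from RefSeq (GRCm38.p6), 5′ to 3′, with the seed (bases 2 to 8) in capitals. The first pair shares a seed and had differences of opposite sign, the miR-29, miR-30 and miR-17 seeds hold several members that lay low in 59Q, and the let-7 pair shows the miRNA of lowest moderated t beside a family member whose groups overlap.
miR-322-5p: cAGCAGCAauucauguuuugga
miR-16-5p: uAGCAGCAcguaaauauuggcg
miR-29a-3p: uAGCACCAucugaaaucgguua
miR-29b-3p: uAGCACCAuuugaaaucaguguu
miR-29c-3p: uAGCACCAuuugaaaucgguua
miR-30e-5p: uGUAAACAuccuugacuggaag
miR-30a-5p: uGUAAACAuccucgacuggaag
miR-106b-5p: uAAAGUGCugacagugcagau
miR-93-5p: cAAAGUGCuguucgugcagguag
miR-20a-5p: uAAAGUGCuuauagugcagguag
let-7i-5p: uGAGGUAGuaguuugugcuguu
let-7a-5p: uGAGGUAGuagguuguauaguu

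Beyond the seed these molecules differ to unequal degrees. miR-322 and miR-16 are identical at 12 of 22 positions counted from the 5′ end, whereas miR-29a and miR-29c are identical at 21 of 22 and miR-30e and miR-30a at 21 of 22. let-7i and let-7a are identical at 18 of 22. Of the 226 miRNA entries tested, 114 had a mature sequence in the table used, 49 by exact name and 65 after the array's older name was matched to an arm.

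Signals are given as log2 scaled signal: the scanner software's processed signal of a probe, divided by the 75th percentile of that array over the 290 mouse probes that cleared background on every one of the 18 arrays, floored at 0.0581 (log2 -4.11) and averaged over a miRNA's kept probes. An entry was tested if any of its probes was well above background on the full set of 3 arrays of some group of the study, which held for 226 of the 566 mouse entries. At 36 h 157 entries had a probe above background on all 6 arrays and 302 on none. On each of the 6 arrays 26.0% to 35.04% of mouse probe spots were above background. Precision is limited by having 3 arrays per construct.

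The 59Q arrays were brighter than the 16Q arrays. The 75th percentile of processed signal was 132, 149 and 195 on the 16Q arrays and 316, 277 and 223 on the 59Q arrays, in the order of replicates 1, 2 and 3. The groups did not overlap, and the mean of 59Q was 1.71 times that of 16Q (272 ± 46.6 against 159 ± 32.6, SD, n = 3 each, two-sided exact permutation p = 0.1, the smallest that 3 against 3 allows). The number of probes above background went the same way, with 449, 480 and 424 on the 16Q arrays against 609, 555 and 548 on the 59Q arrays. Scaling divides each array by its own brightness, so the sign of many small differences depends on it, and the median over the 226 miRNAs of the 59Q minus 16Q log2 difference was -0.19 as scaled, 0.47 with no scaling between arrays, 0.31 in the deposited log2 table and -0.36 with normexp background correction. Changes are therefore also given relative to that median. A total difference in miRNA per cell cannot be told apart from a difference in labelling or RNA input.

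**Figure D1:**
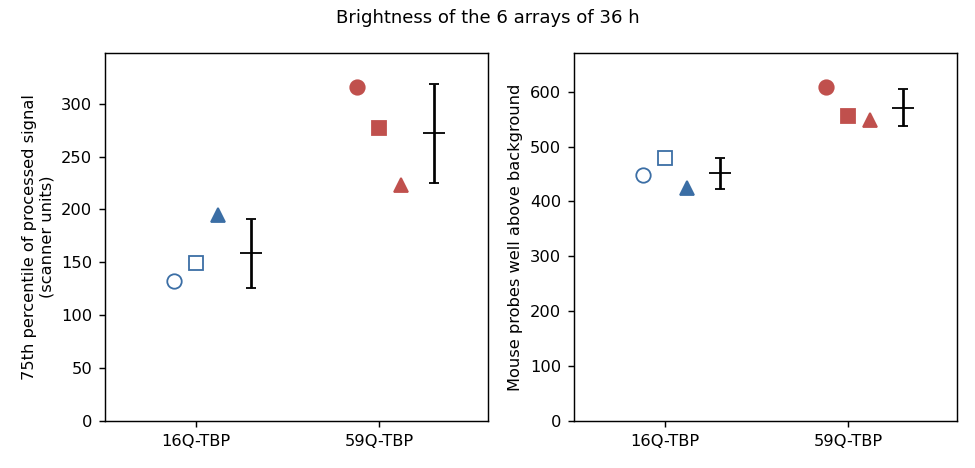
Brightness of the 6 arrays of 36 h. The left panel plots the 75th percentile of processed signal in scanner units and the right panel the number of mouse probes well above background. Circles, squares and triangles are replicates 1, 2 and 3, filled symbols are arrays of the second slide, open symbols are arrays of the first slide, and the black bar is the mean with its SD (n = 3). Every 59Q array lies above every 16Q array in both panels, including 16Q replicate 3 of the same slide (195 against 223 to 316).

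Slide and construct overlapped in part. 16Q replicates 1 and 2 lay on the first slide, and 16Q replicate 3 and all 59Q arrays lay on the second. Differences within the second slide, with 1 array of 16Q, are given beside the pooled ones. 59Q replicate 2 stood apart: its correlations with the other arrays of 36 h were from 0.759 to 0.883 except with 59Q replicate 3 (0.951), whereas the 16Q arrays correlated with each other at 0.919 to 0.978. Results that rest on the spread are therefore also given without 59Q replicate 2. 59Q replicate 1 correlated at 0.934 to 0.944 with the 16Q arrays and at 0.803 with 59Q replicate 2. The main axis of variation of the 6 arrays (first principal component, 68.3% of the variance) did not separate the constructs. 59Q replicate 1 lay at -3.88 on it, within the 16Q arrays (-6.49 to -0.94), and 59Q replicates 2 and 3 at 11.1 and 4.07. The labelled cell type was checked by marker miRNAs. miR-17 and miR-92a were above background on all 6 arrays, and 5 of the 9 neural markers on the array (miR-124, miR-9, miR-9*, miR-137 and miR-218) were on none. The markers of liver, blood, epithelium and endothelium (16 entries in all) were on none either. Among muscle and pluripotent cell markers, miR-206 was above background on 1 array of 16Q and 3 of 59Q, miR-290-5p on 2 and 3 and miR-294 on 1 and 3, and the other 11 on none. The summed scaled level of the 9 neural markers was 4.94 to 5.55 on the 16Q arrays and 2.94 to 4.86 on the 59Q arrays. miR-92a and miR-17, which many dividing cells express, are the only neural-list entries above background on all 6 arrays, so this sum is no measure of neural identity. That of 5 fibroblast and smooth muscle markers, 3 of them above background on all 6 arrays, was 6.09 to 7.59 and 3.92 to 6.11. The part of either in the results was not tested.

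miR-322 rose in cells with expanded TBP and no other miRNA passed the threshold at 36 h. It is the mouse counterpart of human miR-424, is encoded on the X chromosome (GRCm38.p6, chrX:53054306-53054327, minus strand) and belongs to the miR-15/16 seed family, which restrains cell-cycle genes. The log2 scaled signal was -2.22, -1.78 and -1.89 on the 16Q arrays and 1.16, 0.17 and 1.07 on the 59Q arrays. Every 59Q array lay above every 16Q array, with 59Q replicate 2 the lowest of the 3. The rise was 6.79-fold (log2 2.76, SE 0.29, 95% interval 2.16 to 3.37, limma adjusted p = 9.08e-06), higher in 3 of 3 arrays, and exact permutation of the 6 arrays gave p = 0.1, the smallest possible. limma called 1 of 226 miRNAs (0.442%), 1 higher and 0 lower, while 35 (15.5%) had an unadjusted p under 0.05.

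The signal of miR-322 came from 1 of its 2 probes. That probe had a processed signal of 28.4, 43.3 and 52.6 on the 16Q arrays and 707, 312 and 468 on the 59Q arrays, and was above background on all 6. The other probe was above background on none, with 4.40, 5.17 and 8.16 on the 16Q arrays and 7.74, 2.76 and 3.53 on the 59Q arrays, so the difference rests on 1 probe. When both were averaged, without a filter on dim probes, the log2 difference was 1.38 and did not pass (limma adjusted p = 0.0999). Within the second slide the difference was 2.69, and between the slides the 16Q arrays differed by 0.11. Without 59Q replicate 2 it was 3.08 (limma adjusted p = 2.00e-06). It was 2.85 with quantile normalization, 3.03 with scaling to the median, 3.55 with no scaling, 2.78 in the deposited table and 1.79 with normexp. The limma adjusted p ranged from 1.88e-07 to 0.0999 over the alternatives.

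**Figure D2:**
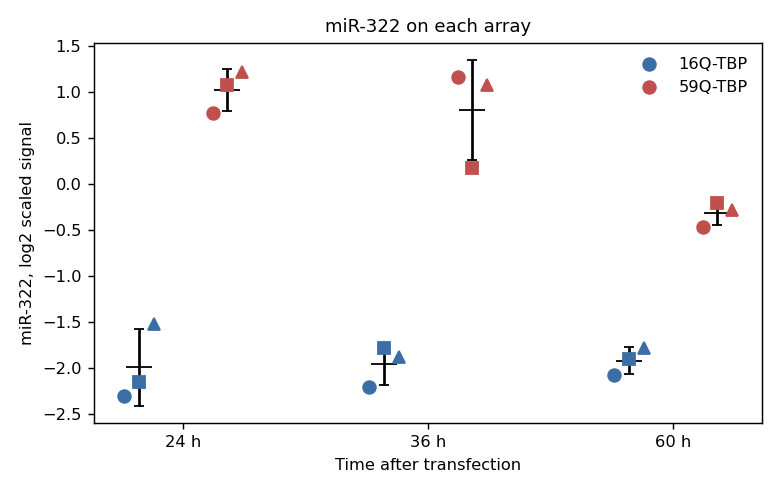
miR-322 on each of the 18 arrays. The vertical axis is log2 scaled signal and the horizontal axis time after transfection; symbols are replicates 1 (circle), 2 (square) and 3 (triangle), blue for 16Q and red for 59Q, and black bars are the mean with SD (n = 3). At 36 h the 59Q arrays lie at 1.16, 0.17 and 1.07 and the 16Q arrays between -2.22 and -1.78, and the groups do not overlap at 24 h or 60 h either.

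Of 11 entries of the X-linked cluster of miR-322 on the array 4 were tested, and none of its 3 tested neighbours passed. miR-503, which is cut from the same transcript and differs from miR-322 in the seed, was at -2.70, -2.44 and -2.76 in 16Q and -2.59, -2.80 and -2.67 in 59Q. These ranges overlap, and the log2 difference was -0.05 (SE 0.22, 95% interval -0.53 to 0.43, limma adjusted p = 0.927). miR-450a-3p was at -0.09 (SE 0.41) and miR-542-3p at -0.22 (SE 0.42), and their groups overlap too. The other members of the seed family lay on the opposite side: miR-16, miR-497, miR-195, miR-15a and miR-15b had log2 differences of -1.11, -0.98, -0.62, -0.42 and -0.16, none past the threshold. For miR-16 the values were 0.81, 0.82 and 0.97 in 16Q and 0.36, -0.81 and -0.28 in 59Q, which do not overlap (SE 0.40, limma adjusted p = 0.235).

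No miRNA passed on the lower side. The lowest moderated t was that of let-7i, a member of the let-7 family that restrains growth genes (GRCm38.p6, chr10:122985698-122985719, minus strand). It was at -1.84, -2.33 and -2.01 in 16Q and -2.89, -3.90 and -3.39 in 59Q. All 59Q arrays lay below all 16Q arrays, with a log2 difference of -1.33 (SE 0.37, 95% interval -2.12 to -0.55, limma adjusted p = 0.201). miR-30e, of a family known to target autophagy and differentiation genes, was at -2.13, -2.35 and -2.25 in 16Q and -2.83, -3.79 and -3.42 in 59Q. Its groups do not overlap either (log2 difference -1.11, SE 0.32, limma adjusted p = 0.201). miR-29b, which targets collagen and other matrix genes and DNA methyltransferases, was at 0.72, 0.71 and 0.91 in 16Q and 0.06, -1.0 and -0.40 in 59Q. The groups are separate, at a log2 difference of -1.22 (SE 0.38, limma adjusted p = 0.201). miR-106b, a cell-cycle miRNA of the miR-17 seed, was at -0.72, -0.95 and -0.74 in 16Q and -1.30, -2.53 and -1.84 in 59Q. Its 59Q arrays again lie below all 16Q arrays (log2 difference -1.08, SE 0.35, limma adjusted p = 0.201).

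miR-146a, an NF-kB-induced inhibitor of inflammatory signalling, was nearly level in 16Q, at -1.24, -1.25 and -1.23, against -1.73, -2.48 and -2.06 in 59Q. The 59Q arrays lay below all of these and were spread more widely, and the log2 difference of -0.85 (SE 0.28) did not pass (limma adjusted p = 0.201). miR-881 and miR-880, which belong to a large X-linked cluster best known from testis, were at -1.04 (SE 0.33) and -0.69 (SE 0.22), miR-29c and miR-29a at -1.10 (SE 0.37) and -1.16 (SE 0.40), and miR-101b, which is known to target ataxin-1 and the Polycomb enzyme EZH2, at -0.91 (SE 0.32). All of these had separate groups and limma adjusted p from 0.201 to 0.217. In each of the 10 miRNAs of lowest t, 59Q replicate 1 lay nearest to the 16Q arrays and 59Q replicate 2 farthest from them.

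The same order of arrays held more widely. In 51 of 226 miRNAs (22.6%) all 59Q arrays lay below all 16Q arrays, and in 5 (2.21%: miR-322, miR-681, miR-150*, miR-329 and miR-326) above. Of these 5, miR-329 and miR-326 had no probe above background on all 3 arrays of 16Q. Among the 51, 59Q replicate 2 was the lowest array in 48 and 59Q replicate 1 the highest of the 59Q arrays in 45. Of the 51, 49 were lower in each of their kept probes, and the other two had a kept probe at the floor on all 6 arrays. Their median log2 difference was -0.73. As 16Q replicate 3 shares the slide of the 59Q arrays, the choice of the 51 fixes their direction within that slide. With no scaling 27 of the 51 remained lower, 23 did so in the deposited table, and with normexp or quantile normalization 51 and 50. The count itself moved with scaling: with no scaling 2 miRNAs lay below without overlap and 76 above, and with normexp 120 below and 1 above. Without 59Q replicate 2 the counts were 51 below and 15 above, and without 59Q replicate 1 they were 111 and 26. The miRNAs with an unadjusted p under 0.05 numbered 12 without 59Q replicate 2 and 59 without 59Q replicate 1.

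On the upper side only miR-322 was far from the rest. miR-681 was at -2.76, -2.95 and -2.87 in 16Q and -1.87, -2.56 and -1.86 in 59Q. The groups are separate, with a log2 difference of 0.76 (SE 0.35, limma adjusted p = 0.298). The largest probe difference, 1.65, was that of a probe above background on all 59Q arrays and no 16Q array. Over probes above background on all 6 arrays the log2 difference of miR-681 was 0.39. It was 0.12 with a floor 4 times higher and 0.0058 with normexp. miR-150*, the passenger strand of the lymphoid miR-150, was at 0.79 (SE 0.47) and miR-329, of the imprinted Dlk1-Dio3 region, at 0.52 (SE 0.32), with limma adjusted p of 0.436 and 0.445. The next 6 by moderated t, miR-30c-1*, miR-764-5p, let-7b*, miR-134, miR-99b* and miR-206, had log2 differences from 0.43 to 0.71, and their groups overlap. No probe of miR-329, miR-30c-1*, miR-764-5p, let-7b*, miR-99b* or miR-206 was above background on all 3 arrays of 16Q. Each of these probes was above background on all 3 arrays of 59Q. At 36 h these entries thus met the filter through the 59Q arrays only, and their differences involve undetected 16Q signal. For miR-764-5p, let-7b* and miR-206 59Q replicate 1 lay within or below the 16Q arrays, and 59Q replicate 2 was the highest of all. miR-329 and the 6 that follow it turned below 0 with normexp, at -0.06 to -0.29.

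**Figure D3:**
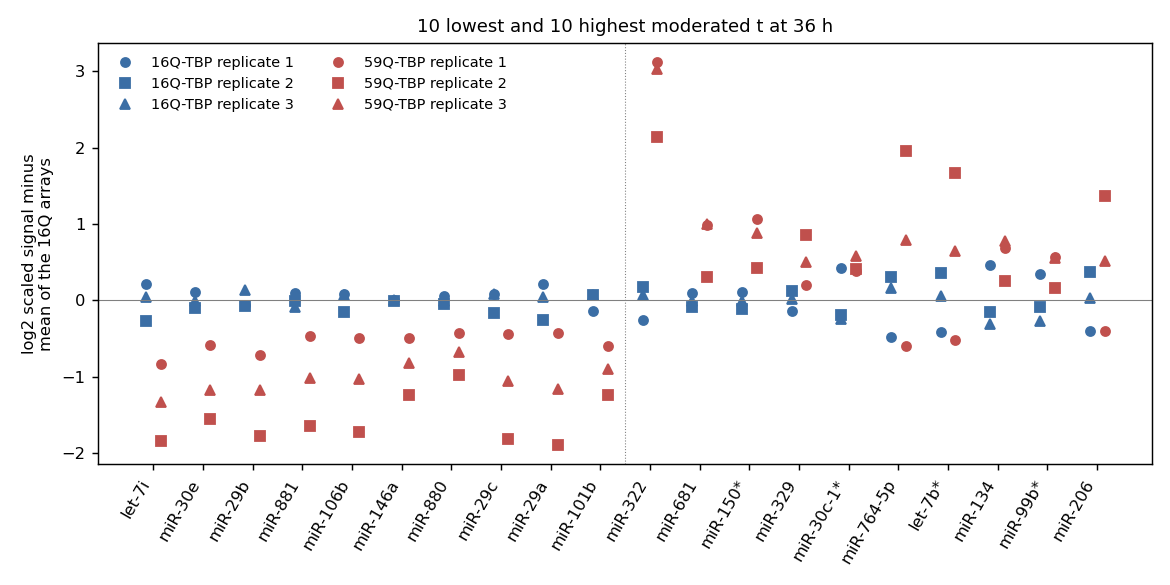
The 10 lowest and 10 highest moderated t at 36 h. The vertical axis is log2 scaled signal minus the mean of the 3 16Q arrays, and each symbol is 1 array (16Q blue, 59Q red; circle, square and triangle for replicates 1, 2 and 3). The left side shows 59Q arrays below all 16Q arrays with replicate 2 lowest; on the right miR-322 lies more than 2 log2 units above 16Q on every 59Q array.

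Families were described by their counts and medians beside those of all 226 miRNAs, of which 143 were lower in 59Q, 80 higher and 3 equal at the floor. By comparison, 22.6% of all 226 lay below without overlap, and each list's count is to be read against that share. The array's 24 detected control probes for other small RNAs, such as U6, had a scaled median of -0.62. No member of any list other than miR-322 passed. All 3 members of the miR-29 family lay below without overlap, with a median log2 difference of -1.16, or -0.97 relative to the median of all miRNAs. The relative value was from -1.17 to -0.48 over the scalings, probe choices and left-out arrays tried. All 3 were lower with no scaling as well. As miR-29a and miR-29c are identical at 21 of 22 positions, their probes may share signal and the members are not independent measurements. The values of miR-29a were 0.52, 0.05 and 0.34 in 16Q and -0.12, -1.59 and -0.86 in 59Q. Those of miR-29c were -1.59, -1.84 and -1.59 against -2.12, -3.48 and -2.73. Both have separate groups, and their differences at 24 h were 0.48 and 0.40, on the other side of 0. The median of all 226 miRNAs at 24 h was 0.25.

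The clusters of miR-17-92 and its paralogs, which promote proliferation, had 11 of 13 entries tested. All 11 were lower in 59Q (7 with no scaling) and 8 of them without overlap, at a median of -0.87, or -0.68 relative to all miRNAs (range over the settings -0.95 to -0.23). The 6 members of seed AAAGUGC (miR-17, miR-20a, miR-20b, miR-93, miR-106a and miR-106b) all lay below without overlap, from -1.39 for miR-20a to -0.80 for miR-106a. miR-20a was at -1.0, -0.99 and -0.61 in 16Q and -1.17, -3.28 and -2.31 in 59Q. 59Q replicate 1 is thus close to 16Q replicates 1 and 2, and its SE is 0.57. The members that carry other seeds were not alike. miR-92a was at -0.48, miR-19b at -0.28 and miR-19a at -0.14, each with overlapping groups. miR-25 was at -1.15 and miR-18a at -0.73, with separate groups. miR-25 and miR-92a share the seed AUUGCAC. Several of these sequences are close enough for probes to cross-react (miR-20a and miR-20b are identical at 21 of 23 positions, miR-17 and miR-20a at 21 of 23), so they are not independent measurements.

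Grouping by genome position gave a related picture. Of 148 entries placed at a single locus of GRCm38.p6, 9 groups of at least 3 entries lay within 50 kb of each other. The group on chromosome 5 that holds miR-25, miR-93 and miR-106b, which share an intron of Mcm7, had 3 of 3 members below without overlap and the lowest median (-1.08, and -0.30 with no scaling). The X-linked group of 13 entries around miR-880 and miR-881 had 12 lower and 1 at the floor on all arrays, 2 of them below without overlap, and a median of -0.58, which was 0.11 with no scaling. The miR-17 cluster on chromosome 14 had 5 of 5 placed entries lower, 3 without overlap, and a median of -0.73, which was 0.05 with no scaling. miR-18a*, the star strand of miR-18a, was tested but not placed. It was near the floor and higher in 59Q, at 0.22 with overlapping groups. The Dlk1-Dio3 region on chromosome 12 gave 2 groups. The larger had 6 of 9 higher and a median of 0.36, and the other had 2 of 4 higher and a median of 0.0027.

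The miR-30 family had 5 of 5 members lower (3 with no scaling), 3 of them without overlap (miR-30e, miR-30a and miR-30d), at a median of -0.81, or -0.62 relative to all miRNAs (range -0.88 to -0.25). Probes of miR-30e and miR-30a, identical at 21 of 22 positions, may share signal. miR-30d was at -1.19, -1.73 and -1.84 in 16Q and -1.97, -2.84 and -2.28 in 59Q. Its groups just separate (log2 difference -0.78, SE 0.31, limma adjusted p = 0.256), and with no scaling its difference was 0.01. The let-7 family contrasts with these: 8 of 8 tested members were lower (1 of 8 with no scaling), yet only let-7i lay below without overlap, and the median was -0.30. let-7a was at -0.33, -0.20 and 0.41 in 16Q and 0.37, -1.29 and -0.35 in 59Q, which overlap. Relative to all miRNAs the family median was -0.11, and it turned to 0.07 without 59Q replicate 2 and to 0.08 without 16Q replicate 3.

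miRNAs with links to ataxia or to neurons were looked at as lists. The 6 that are known to target ataxin-1 (miR-19a, miR-19b, miR-101a, miR-101b, miR-130a and miR-130b) were all lower, 3 without overlap (miR-101b, miR-130a and miR-130b), at a median of -0.58. With no scaling 2 of 6 were lower (median 0.0955) and 1 of 6 in the deposited values (median 0.0717), while relative to all miRNAs the median was -0.39 as scaled and -0.37 with no scaling. miR-130a was at 1.47, 1.27 and 1.34 in 16Q and 0.87, 0.34 and 0.67 in 59Q. The groups are separate, and the log2 difference was -0.73 (SE 0.27, limma adjusted p = 0.247). Of 17 neuronal entries on the array 9 were tested, with 7 lower, 1 higher and 1 without overlap, at a median of -0.43 (3 of 9 lower with no scaling). miR-7a, which is enriched in neurons and endocrine cells, was at -2.72, -3.10 and -2.78 in 16Q and at the floor on all 3 arrays of 59Q. Its detected probes were above background on 3 arrays of 16Q and 1 of 59Q, with log2 differences to the floor of -1.80 and -1.93. A further kept probe was at the floor on all 6 arrays. Averaged with it, the log2 difference of miR-7a was -1.24 (SE 0.67, limma adjusted p = 0.427). Fitted on the 6 arrays of 36 h alone miR-7a passed (SE 0.15, limma adjusted p = 0.0293). The floor makes its 3 values in 59Q identical, so this p does not measure the spread of the 59Q replicates. The miR-34 family, induced by p53, had 0 of 4 entries above the filter.

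Of the stress and inflammation miRNAs 6 of 7 tested were lower, 5 without overlap, at a median of -0.46 (3 of 7 lower with no scaling). miR-21, a growth and stress-induced miRNA, was at -1.43, -1.68 and -1.20 in 16Q and -2.07, -4.11 and -3.39 in 59Q. It had the lowest log2 difference of all 226, -1.75, with an SE of 0.90 (limma adjusted p = 0.387). 59Q replicate 2 was at the floor and replicate 1 was not. The entry for miR-199b and miR-199a-3p, mesenchymal miRNAs, behaved likewise (-2.19, -2.29 and -1.71 against -3.14, -4.11 and -3.97, log2 difference -1.67, SE 0.70, limma adjusted p = 0.266). miR-22 and miR-214 were separate by little, at -0.37 (SE 0.31) and -0.31 (SE 0.23), and miR-155 was at 0.25 (SE 0.35) with overlapping groups. The families of miR-125, miR-99 and miR-100 (3 of 3 tested lower, median -0.78), miR-103, miR-107 and miR-26 (4 of 4, -0.71), miR-23, miR-24 and miR-27 (5 of 5, -0.58) and miR-181 (4 of 4, -0.42) had medians below 0, with 1, 2, 3 and 3 members without overlap. With no scaling 2 of 3, 2 of 4, 0 of 5 and 1 of 4 of these members were lower. Relative to all miRNAs, the medians were -0.58, -0.52, -0.38 and -0.22 as scaled and -0.49, -0.48, -0.26 and -0.36 with no scaling.

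Within the second slide, against the single 16Q array there, the miR-29 median was -1.20, that of miR-17-92 and its paralogs -0.86, that of miR-30 -1.02 and that of the ataxin-1 list -0.63, beside -0.14 over all miRNAs. The let-7 median was -0.72 within that slide, more than 2 times its pooled value of -0.30, and that of miR-181 was -0.15 against -0.42.

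**Figure D4:**
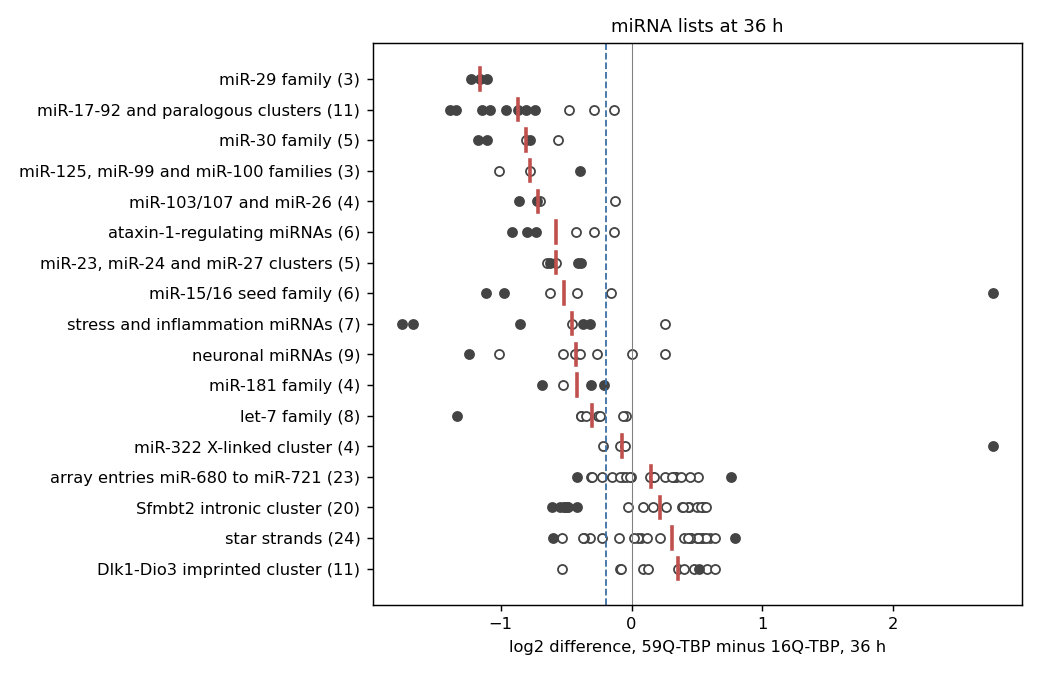
Differences of the list members at 36 h. Each point is a miRNA, placed by its 59Q minus 16Q log2 difference, and filled where all 59Q arrays lie on one side of all 16Q arrays. The red bar is the median of a list, the dashed blue line the median of all 226 miRNAs (-0.19), and the number of tested members is in parentheses. miR-322 is the lone point at 2.76. The miR-29, miR-17-92 and miR-30 lists have every member below 0, as do the let-7 and ataxin-1 lists and several others.

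Other lists lay above the median of all miRNAs. The Sfmbt2 intronic cluster, a array of repeat-derived genes from 4 families (miR-297, miR-466, miR-467, miR-669), had 12 of 20 tested entries higher, a median of 0.21, and 7 entries below without overlap. All 7 named as star or 3p strands were higher, from 0.39 to 0.57, each with overlapping groups. Of the 13 others 8 were lower and 5 higher, with a median of -0.42, which was 0.37 with no scaling. A difference between the strands was not tested. Many of these entries are near-identical repeats whose probes can share signal. Star strands, the less abundant arms of their hairpins, had 17 of 24 higher and a median of 0.31, and the Dlk1-Dio3 cluster, an imprinted region active in brain and embryo, had 8 of 11 higher and a median of 0.36. The 23 tested entries numbered miR-680 to miR-721 had 13 higher and a median of 0.15. The sign of these medians depended on background correction. With normexp they were -0.09 for Sfmbt2, -0.26 for star strands, -0.08 for Dlk1-Dio3 and -0.16 for miR-680 to miR-721, beside -0.36 over all miRNAs. With no scaling they ranged from 0.81 to 1.03, beside 0.47. Relative to all miRNAs the median of star strands was 0.09 with normexp. Without 59Q replicate 2 the Sfmbt2 median relative to all miRNAs was 0.0010, against 0.41 with it, and that of star strands 0.11, against 0.50, while that of Dlk1-Dio3 was 0.42, against 0.55.

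**Figure D5:**
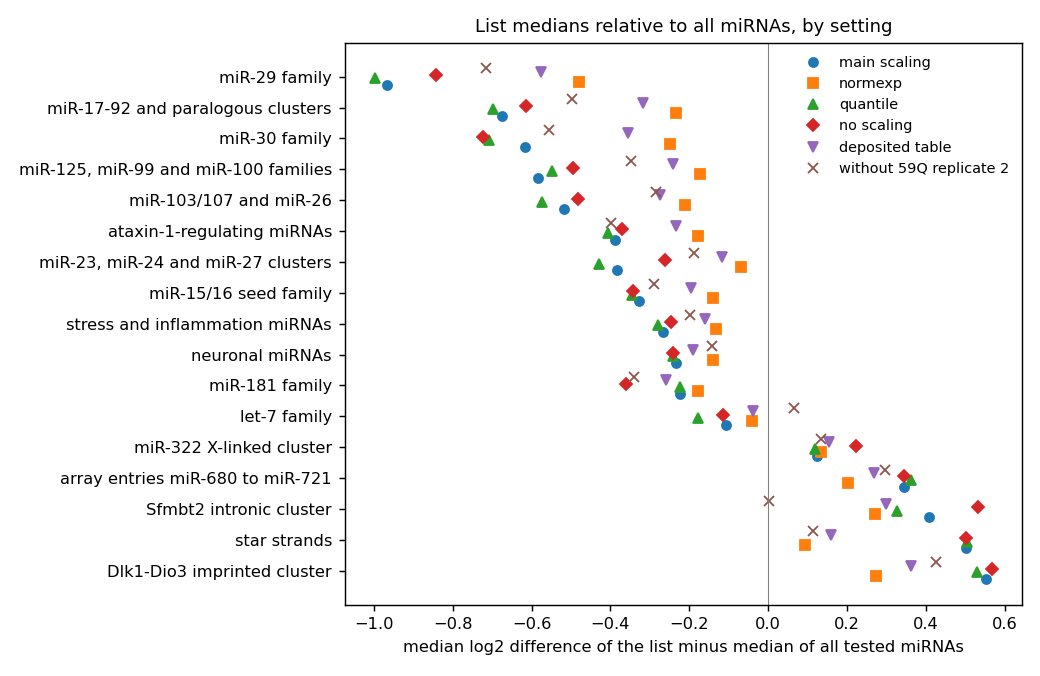
Median log2 difference of each list minus that of all tested miRNAs, under 6 settings. Symbols are the main scaling (circle), normexp (square), quantile (triangle), no scaling (diamond), the deposited table (inverted triangle) and the main scaling without 59Q replicate 2 (cross). The miR-29, miR-17-92 and miR-30 lists lie left of 0 under all 6 (miR-29 from -1.0 to -0.48). So does every other list that lies left of 0 with the main scaling, except let-7. The let-7 list crosses 0 without 59Q replicate 2.

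Detection in 1 construct alone was rare. miR-338-3p, a neuronal and glial miRNA, was above background on all 3 arrays of 16Q and no array of 59Q. Its detected probe was at -2.76, -3.43 and -3.22 in 16Q and at the floor in 59Q. It was at least 1.96-fold lower in 59Q, a bound taken at the floor, but did not pass (limma adjusted p = 0.298). Conversely, miR-292-5p, miR-877, miR-326, miR-677 and miR-18a* were above background on all 59Q arrays and no 16Q array, near the limit of detection. These flags are set on unscaled signal, and the 59Q arrays were 1.71 times brighter. The part of brightness in these detections was not tested. For miR-677 the scaled signal of the detected probe was not higher in 59Q (log2 difference -0.08). A bound could be given for miR-877 only, at least 1.02-fold higher in 59Q (limma adjusted p = 0.701).

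Whether the difference at 36 h departs from that at the other times was tested directly, as the 36 h difference minus the mean of the 24 h and 60 h differences. limma called 0 of 226 (0%), and an unadjusted p under 0.05 was found for 36 (15.9%). Lowest in p were let-7i, miR-29b, miR-16, miR-30e and miR-106b, each with limma adjusted p = 0.219. For let-7i the 59Q minus 16Q difference was 0.21 at 24 h, -1.33 at 36 h and 0.36 at 60 h, a contrast of -1.62 (SE 0.46). For miR-29b it was 0.48, -1.22 and 0.02, a contrast of -1.47 (SE 0.47), and for miR-16 0.49, -1.11 and 0.22, a contrast of -1.46 (SE 0.48). All 3 were thus below 0 at 36 h alone, without passing. The median over all 226 miRNAs had the same signs, at 0.25, -0.19 and 0.06, and the median contrast was -0.41. Array brightness also differed between the times. The 75th percentile at 24 h was 311, 331 and 216 in 16Q and 106, 182 and 260 in 59Q. At 60 h it was 118, 117 and 236 in 16Q and 211, 168 and 292 in 59Q. The part of brightness in these signs was not tested. Of the 51 miRNAs below without overlap at 36 h, 11 were lower at 24 h and 13 at 60 h, while over all 226 the counts were 53 and 99. miR-322 was higher at each time, and its contrast was 0.45 (SE 0.35, limma adjusted p = 0.458). At 60 h 59Q replicates 2 and 3 lay on a slide of their own, and the other arrays of 60 h on the second. Slide and construct thus overlapped in part at 60 h too, which enters every value of this contrast. With slide added as a block, the contrast was -3.03 for miR-7a, -3.96 for miR-21 and -2.17 for let-7i. That fit sets a single 16Q array of 36 h against the 59Q arrays. Its 60 h difference rests on 59Q replicate 1 alone.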

How the data were processed

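Per the file headers, each deposited file is 1 array read with Feature Extraction 9.5.1.1 and gives the intensity of every spot, as a processed signal after background subtraction, with detection flags. The deposited series table holds log2 values that equal log2 of the net intensity of the same spots without scaling, and served as an alternative only. Other steps of the authors are not given in the sources used here.

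From these, processed signal was averaged over unflagged spots of each probe, scaled, floored and taken to log2. Probes well above background (at least 50% of spots) on all 3 arrays of at least 1 group were kept, which left 557 probes of 226 miRNAs, 46 of them with a single probe. No spot was saturated. limma 3.58.1 in R 4.3.3 fitted 6 group means over 18 arrays (12 residual degrees of freedom) with p adjusted by Benjamini and Hochberg across all 226 miRNAs and a threshold of 0.05. Named miRNAs are those past the threshold, the 10 highest and 10 lowest moderated t, those detected in 1 construct only, the 5 smallest p of the contrast between times, and list members. Further entries (miR-326, and the miRNAs detected in 1 construct by any probe) were named after their values were seen. The members and lists were chosen with earlier results of these data known. The array's miRNA names are old, and arms were assigned by hand to match RefSeq, so a sequence is that of the arm the old name stood for. Alternatives were other scalings and background corrections, other filters and floors, probe choice, slide and replicate blocks, the 6 arrays alone, and each array left out.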

Additional observations from a re-analysis of the deposited data

How the results depend on the processing

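The count of miRNAs past the threshold at 36 h was 1 in most settings. It was 2 with a floor 4 times higher, where miR-297c joined miR-322 (log2 difference -0.45, limma adjusted p = 0.00316), and 2 on the 6 arrays of 36 h alone, where miR-7a joined it. Without a filter on dim probes the count was 1, but it was miR-297c (-0.39, limma adjusted p = 0.026), and miR-322 fell short at 1.38. Leaving out each array gave counts from 1 to 1 and 2.58 to 3.08 for miR-322. The contrast of 36 h with the other times gave 1 call with the floor 4 times higher and 11 with slide as a block, and 0 to 0 when each array was left out. With normexp the log2 difference turned to -0.24 for miR-329, -0.29 for miR-30c-1*, -0.0738 for miR-764-5p, -0.15 for let-7b*, -0.0586 for miR-134, -0.27 for miR-99b* and -0.21 for miR-206, and that of miR-880 to 0.0955 without scaling and 0.0896 in the deposited values. The cause was not tested in these cases. Deviations of same-numbered arrays from their group means correlated at 0.36, 0.67 and -0.51. With 3 arrays per group these values are not independent, so they cannot settle whether the replicate numbers pair the arrays. The fit with the replicate block gave 1 call, miR-322 at 2.76 (limma adjusted p = 2.34e-05). Dim probes limit the differences near the floor, which are compressed.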

Other observations

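The array also carries controls for small RNAs other than miRNAs, such as U6, 4.5S and vault RNAs. Of 40 such probes 24 were above background on all 6 arrays of 36 h. All 24 were lower in 59Q on the scaled values, with a median log2 difference of -0.62, and 15 were higher with no scaling, with a median of 0.16.

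1 viral entry was detected in both constructs. All 4 probes of mghv-miR-M1-2, a miRNA of murine gammaherpesvirus 68, were above background on all 6 arrays. Its log2 scaled signal was -2.39, -1.66 and -2.23 in 16Q and -2.86, -0.97 and -1.54 in 59Q. The groups overlap. The other 9 viral entries had 0 probes above background on all 6 arrays.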
